A study of Mus musculus with 8 samples.

Results

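The T cell receptor gamma and delta locus genes were examined in RNA-seq of mouse lymph node CD8 T cells sorted as positive for Ly6C and CXCR3. Of 8 genes named, 7 were in the deposited table of 13245 genes: the gamma constant genes Tcrg-C1, Tcrg-C2 and Tcrg-C4, the gamma variable genes Trgv2 and Tcrg-V4, the delta constant gene Trdc, and Cd163l1, a scavenger receptor gene known from mouse gamma-delta T cells. Sox13, a transcription factor gene of the mouse gamma-delta lineage, had no row there and is not analysed here. Members were matched by symbol. There were 4 libraries of CD103Tg mice, whose name points to a transgene for CD103 (the integrin alpha E chain, gene Itgae), and 4 of C57BL/6 mice (B6, called wild type in the design text). Both groups were sorted in the same way, and the labels used here name no promoter for the transgene, no age and no pooling. Whether each replicate was its own animal is not stated, and the tests therefore speak of the spread among these 8 libraries alone.

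Gamma and delta chains form the antigen receptor of gamma-delta T cells, whereas CD8 T cells of the kind sorted here carry alpha and beta chains. In the mouse, the gamma locus holds several clusters, each with its own variable, joining and constant genes, and alpha-beta T cells can carry rearranged gamma genes that are kept largely silent. The delta genes lie inside the alpha locus, so that rearrangement of alpha removes them from that chromosome. In mouse T cell precursors, signals from the interleukin-7 receptor through STAT5 open the gamma locus for recombination and transcription.

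Tcrg-C1 and Tcrg-C2 are close copies, which bears on how reads were divided between them, and Tcrg-C4 is more distant. The start of the constant domain in exon 1 is shown for each. The sequences are the coding strand of GENCODE M21 transcripts on GRCm38, and capitals mark bases that differ from Tcrg-C1. They lie at chr13:19214103-19214192 (plus strand), chr13:19307462-19307551 (minus strand) and chr13:19344558-19344647 (plus strand).
Tcrg-C1: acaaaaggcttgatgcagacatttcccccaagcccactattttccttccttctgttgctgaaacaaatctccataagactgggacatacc
Tcrg-C2: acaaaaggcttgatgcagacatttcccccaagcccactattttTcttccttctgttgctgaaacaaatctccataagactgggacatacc
Tcrg-C4: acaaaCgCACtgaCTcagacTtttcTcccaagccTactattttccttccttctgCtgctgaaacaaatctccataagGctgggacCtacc

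Over the 330 bases of exon 1, Tcrg-C2 was 97.3% identical to Tcrg-C1 (9 bases differ), and Tcrg-C4 was 82.1% identical to Tcrg-C1 (59 bases differ). In the last coding exon, Tcrg-C2 was 97.1% and Tcrg-C4 68.6% identical to Tcrg-C1. The genes differ most in the connector exons between the constant domain and the membrane part, which are shown whole and without capitals because their lengths differ. Tcrg-C1 has 45 connector bases, Tcrg-C2 has 30, and Tcrg-C4 has 99 in 2 exons.
Tcrg-C1 exon 2, chr13:19215864-19215908: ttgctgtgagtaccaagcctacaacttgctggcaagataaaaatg
Tcrg-C2 exon 2, chr13:19305769-19305798: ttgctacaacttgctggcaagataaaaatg
Tcrg-C4 exon 2, chr13:19349536-19349589: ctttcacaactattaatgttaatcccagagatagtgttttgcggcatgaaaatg
Tcrg-C4 exon 3, chr13:19350330-19350374: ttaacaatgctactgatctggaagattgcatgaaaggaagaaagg

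The variable genes are shown by the last 75 coding bases before the joining site, since Trgv2 has a near copy, Tcrg-V1, in the same locus. Capitals mark bases that differ from Trgv2. They lie at chr13:19336573-19336647 (minus strand), chr13:19340380-19340454 (plus strand) and chr13:19185432-19185506 (plus strand).
Trgv2: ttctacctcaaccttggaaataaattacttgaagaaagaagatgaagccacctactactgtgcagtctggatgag
Tcrg-V1: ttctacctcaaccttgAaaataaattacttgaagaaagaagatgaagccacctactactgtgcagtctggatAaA
Tcrg-V4: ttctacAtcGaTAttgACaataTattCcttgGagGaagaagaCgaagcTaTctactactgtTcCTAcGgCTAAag

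Of the windows of 50 bases along each transcript, 29.6% of Tcrg-C1, 25.4% of Tcrg-C2 and 7.0% of Trgv2 were also found in another gamma transcript, against 0.0% of Tcrg-C4, Tcrg-V4 and Trdc. Part of the windows of Tcrg-C1 and Tcrg-C2 lie in Tcrg-C3, an annotated gene with no row in the table. Of the 80 shared windows of Tcrg-V1, 68 were found in Tcrg-V3, which has no row in the table either. Levels of Tcrg-C1 and Tcrg-C2, and of Trgv2 and Tcrg-V1, are therefore uncertain one by one. A sum is given for the 3 constant genes, and none for Trgv2 with Tcrg-V1. The library type does not mark strand. Tcrg-V4 shares 79 exon bases with the antisense gene Gm31887, which has no row in the table. Trdc shares 96 exon bases with Gm43434, also without a row, and 207 with the antisense variable gene Trdv5.

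Libraries held 50187279 to 56371476 estimated reads over the listed genes, so that a single read weighed 0.0171 to 0.0203 CPM. Itgae, the gene of the transgene's name, was at 3470 to 5510 CPM in CD103Tg and 37.5 to 174 CPM in B6. The defining genes of CD8 T cells were high in all libraries, with Cd8a at 1010 ± 43.5 CPM in CD103Tg and 1190 ± 31.9 CPM in B6, and Cd3e at 830 ± 45 CPM in CD103Tg and 900.0 ± 62.7 CPM in B6 (SD, n = 4 each). Over the whole table, 3592 of 11503 tested genes differed between CD103Tg and B6 at an adjusted p under 0.05 (limma with a trend on log2(CPM + 1), Benjamini-Hochberg), which is 31.2% of them. Genes called higher in CD103Tg made up 17.4% of those tested and genes called lower 13.8%, and those called higher by a log2 fold change of at least 1 made up 3.64%.

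The transcripts of the gamma locus were higher in CD103Tg cells, and Trdc and Cd163l1 did not pass the test. All 7 listed members passed the filter (mean CPM of 1 or more), Tcrg-V4 only through its level in CD103Tg. Tcrg-C1, Tcrg-C2, Tcrg-C4 and Trgv2 rose, 0 members fell, and 2 missed the threshold. Tcrg-V4 also passed the test as higher, but a gene that is tested only because it is high in CD103Tg had to differ, so its p is given as a description. The ratio of mean CPM, CD103Tg over B6, was 5.22 to 7.94 for the 5 gamma genes. The groups did not overlap for any of them, where 31.0% of all tested genes had groups that did not overlap. In bulk samples, more cells with a transcript and more of it per cell cannot be told apart. The genes were chosen with earlier results of these data known, so the count is a description.

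Tcrg-C2, the constant gene of the cluster that holds Trgv2 (GRCm38 chromosome 13, 19304649 to 19307551), had the highest mean CPM of the gamma genes. Its place above Tcrg-C1 is uncertain, since these genes share sequence. Tcrg-C2 was at 42.6, 28.8, 46.2 and 15.0 CPM in CD103Tg replicates 1 to 4, against 6.02, 2.69, 5.45 and 6.60 CPM in B6 replicates 1 to 4. Every CD103Tg library lay above every B6 library, with CD103Tg replicate 4 nearest to the B6 values. The log2 fold change on log2(CPM + 1) was 2.4 ± 0.32 (SE; limma adjusted p = 0.00021).

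Tcrg-C1, the constant gene of the cluster that holds Tcrg-V4 (chromosome 13, 19214103 to 19217024), stood at 27.8, 17.6, 33.7 and 14.4 CPM in CD103Tg, against 4.78, 2.51, 4.33 and 4.78 CPM in B6. Its log2 fold change was 2.21 ± 0.25 (limma adjusted p = 5.69e-05). Tcrg-C4, the constant gene of a cluster with the variable gene Tcrg-V1 (chromosome 13, 19344558 to 19352756), was lower in level. It was at 13.4, 8.71, 13.5 and 4.92 CPM in CD103Tg, against 1.92, 1.17, 3.32 and 1.35 CPM in B6, a log2 fold change of 1.88 ± 0.29 (limma adjusted p = 0.000586). The highest B6 value and the lowest CD103Tg value of Tcrg-C4 were the closest of the 3 constant genes relative to their levels.

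The variable genes moved in the same direction as the constant genes. Trgv2 (chromosome 13, 19336573 to 19337167) was at 12.0, 8.77, 13 and 4.25 CPM in CD103Tg, against 1.47, 0.858, 1.67 and 1.52 CPM in B6. Its log2 fold change was 2.06 ± 0.27 (limma adjusted p = 0.00017). Tcrg-V4 (chromosome 13, 19184974 to 19185506) was the lowest of the members, at 4.82, 2.90, 5.06 and 1.97 CPM in CD103Tg, against 0.623, 0.331, 0.46 and 0.444 CPM in B6. Its log2 fold change was 1.62 ± 0.22 (limma adjusted p = 0.000205) with a pseudocount of 1. It rested on 103 to 272 estimated reads per library in CD103Tg and 17 to 34 in B6. Because it is low, its log2 fold change depended on the pseudocount, at 2.67 with 0.1 and 0.65 with 5.

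For each of the 5 gamma genes the exact permutation test of the CPM values over 70 assignments gave p = 0.0286 (two-sided), the smallest that 4 against 4 libraries allow. Leaving out any 1 library kept all 5 calls, that of Tcrg-V4 again being a description.

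**Figure D1:**
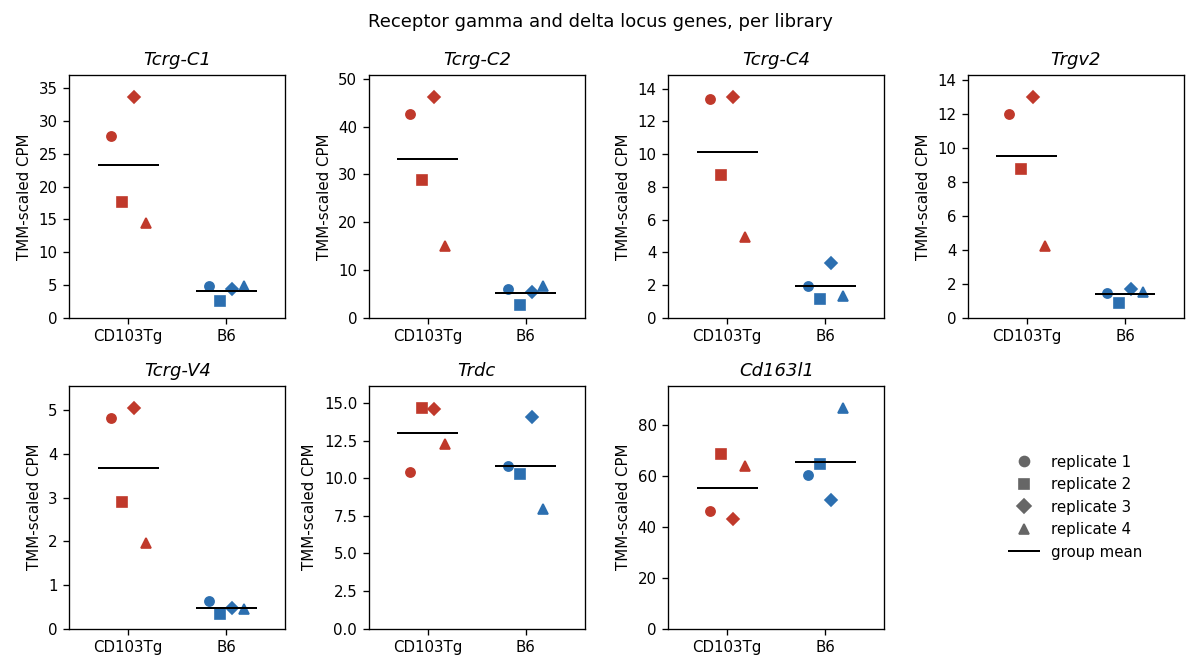
TMM-scaled CPM of the 7 genes in each library, with CD103Tg left and B6 right in each panel. Symbols give the replicate number and black lines the group means. For the 5 gamma genes every CD103Tg library lies above every B6 library, while the groups overlap for Trdc and Cd163l1.

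Trdc, which encodes the constant region of the delta chain (chromosome 14, 54142851 to 54148868), did not pass the test. It was at 10.4, 14.7, 14.6 and 12.3 CPM in CD103Tg, against 10.8, 10.3, 14.1 and 7.98 CPM in B6. The groups overlapped, and the highest B6 library was close to the highest CD103Tg libraries. The log2 fold change was 0.26 ± 0.16 (limma adjusted p = 0.236), with a 95% interval of -0.08 to 0.61, and the exact permutation test gave p = 0.171. The interval allows a ratio of up to 1.52. On the same scale the lower bounds of Tcrg-C1, Tcrg-C2, Tcrg-C4 and Trgv2 were ratios of 2.37 to 3.23. The lower bound of Tcrg-V4 was 2.21, which is a description since Tcrg-V4 was tested only through its level in CD103Tg.

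The gap between each gamma gene and Trdc was computed directly, a comparison chosen after the values were seen. The difference in log2(CPM + 1), gamma gene minus Trdc, was larger in CD103Tg than in B6 by 2.14 for Tcrg-C2, 1.95 for Tcrg-C1, 1.80 for Trgv2, 1.62 for Tcrg-C4 and 1.36 for Tcrg-V4. All 5 comparisons had p = 0.0286 in the exact permutation test, also after Benjamini-Hochberg adjustment over the 5, which leaves equal values unchanged. The gamma genes were already known not to overlap between the groups, and Trdc to differ little. These p are therefore descriptions and add no support to the single-gene results. Tcrg-C1 minus Trdc averaged 0.74 ± 0.59 in CD103Tg and -1.21 ± 0.47 in B6 (log2 units, SD, n = 4 each).

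Cd163l1, also named Scart1 (chromosome 7, 140218267 to 140231145), was at 46.1, 68.6, 43.0 and 64.0 CPM in CD103Tg, against 60.5, 64.8, 50.4 and 86.9 CPM in B6. The groups overlapped, with 3 of the 4 B6 libraries inside the range of CD103Tg. The log2 fold change was -0.24 ± 0.18 (limma adjusted p = 0.331; 95% interval -0.63 to 0.14; exact permutation p = 0.343). Its neighbour 5830411N06Rik, also named Scart2, was chosen after its values were seen and was higher, at 84.3 ± 9.20 CPM in CD103Tg and 54.1 ± 13.1 CPM in B6 (log2 fold change 0.66 ± 0.15, limma adjusted p = 0.00734).

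**Figure D2:**
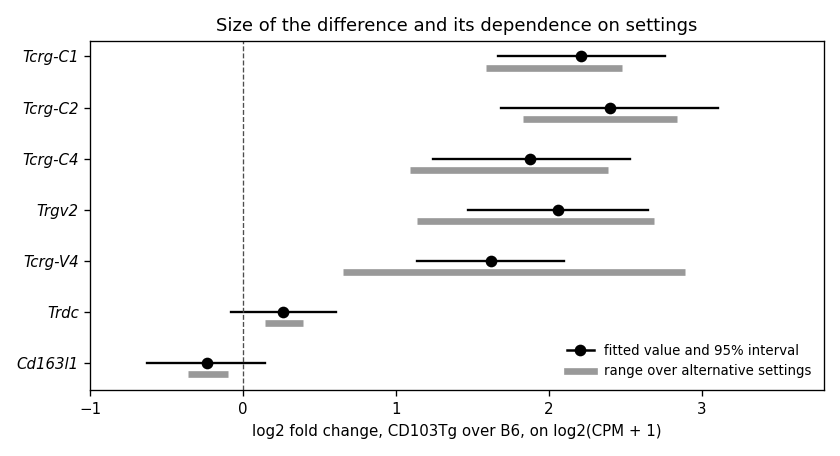
Log2 fold change of each gene, CD103Tg over B6, on log2(CPM + 1), with its 95% interval (black) and the range over the 20 alternative settings (grey; 19 for Tcrg-V4). The 5 gamma genes lie between 1.62 and 2.4, and the intervals of Trdc and Cd163l1 include 0.

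Beyond the members, the table held 1 more of the 15 annotated gamma genes, Tcrg-V1, so that 6 of 15 were listed, and 0 of the 4 joining genes were. Tcrg-V1 was under the filter, at 1.04, 0.731, 1.19 and 0.46 CPM in CD103Tg, against 0.165, 0.078, 0.153 and 0.102 CPM in B6. No CD103Tg value was as low as a B6 value (exact permutation p = 0.0286), and without the filter its log2 fold change was 0.71 ± 0.14 (limma adjusted p = 0.00294). It rested on 27 estimated reads in the B6 libraries together.

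Of the delta variable genes, Trdv2-2 was higher, at 1.86, 3.06, 2.67 and 3.25 CPM in CD103Tg, against 1.65, 1.64, 1.56 and 1.42 CPM in B6 (log2 fold change 0.52 ± 0.14, limma adjusted p = 0.0188). That call was lost without CD103Tg replicate 2 (limma adjusted p = 0.0585) and without both libraries numbered 4 (limma adjusted p = 0.0778). Trdv1 was at 1.01 to 1.82 CPM in CD103Tg and 0.78 to 1.21 CPM in B6 (limma adjusted p = 0.323). Trdv5, which overlaps Trdc on the other strand, was under the filter, at 0.315 to 0.923 CPM in CD103Tg and 0.134 to 0.429 CPM in B6, with groups that overlapped.

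A further 10 listed variable genes can join to alpha or delta. Of the 8 that passed the filter, 1 rose, 2 fell and 5 did not pass the test, where 31.2% of all tested genes were called. Trav21-dv12 rose, at 3.40 to 4.97 CPM in CD103Tg and 1.81 to 2.15 CPM in B6 (log2 fold change 0.78 ± 0.13, limma adjusted p = 0.000891). Trav14d-3-dv8 (-0.90 ± 0.16, limma adjusted p = 0.00155) and Trav16d-dv11 (-0.66 ± 0.14, limma adjusted p = 0.00364) fell.

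The genes beside the gamma locus were compared as well. The annotated gamma genes span 175 kb, and 4 other genes of the table lay within 500 kb. Stard3nl, next to Tcrg-C4, was at 40.6, 39.2, 39.0 and 37.2 CPM in CD103Tg, against 34.0, 34.5, 34.0 and 31.6 CPM in B6, a log2 fold change of 0.21 ± 0.06 (limma adjusted p = 0.019). Vps41 was at 121 to 134 CPM in CD103Tg and 113 to 128 CPM in B6 (limma adjusted p = 0.743). Gpr141 and Gm42683 had means under 1 CPM, and their groups overlapped. The ratio of means of Stard3nl was 1.16, against 5.22 or more for the 5 gamma members.

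The shares of the constant genes in their summed CPM overlapped between the groups. Tcrg-C2 held 49.0 ± 3.75% of the summed constant CPM in CD103Tg and 45.8 ± 4.81% in B6. Tcrg-C1 held 35.8 ± 4.46% in CD103Tg and 36.9 ± 2.7% in B6, and Tcrg-C4 15.1 ± 0.88% in CD103Tg and 17.3 ± 6.20% in B6. B6 replicate 3 had the largest share of Tcrg-C4 (25.3%) and B6 replicate 4 the smallest (10.6%).

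Variable genes were also set against the constant gene of their cluster. Trgv2 over Tcrg-C2 was 0.28 to 0.305 in CD103Tg and 0.23 to 0.319 in B6, and Tcrg-V1 over Tcrg-C4 was 0.0774 to 0.0934 in CD103Tg and 0.0462 to 0.0857 in B6. Tcrg-V4 over Tcrg-C1 was 0.137 to 0.173 in CD103Tg and 0.0928 to 0.132 in B6, and only there did the groups not overlap. These ratios are per gene and not per length, and they carry no test.

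**Figure D3:**
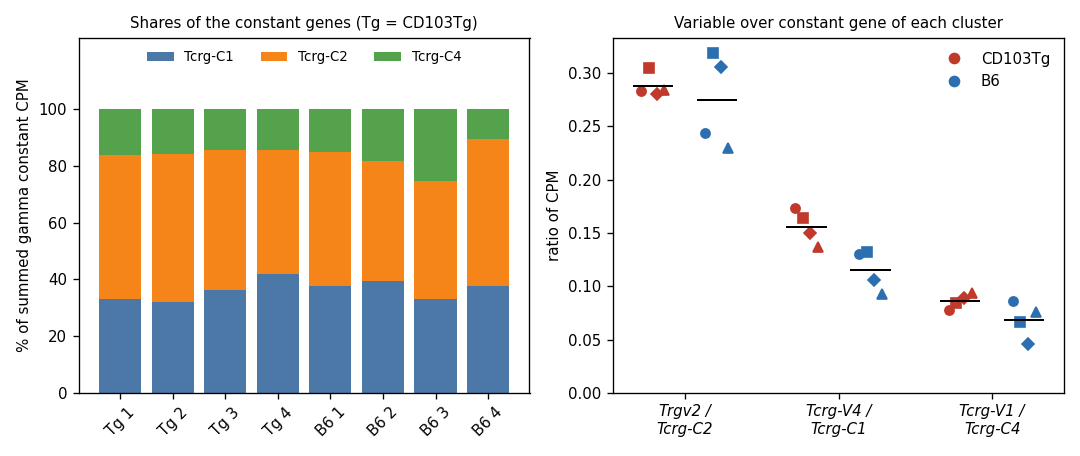
Left, the share of each gamma constant gene in the summed constant CPM per library (Tg, CD103Tg; 100% is the sum of the 3 genes). Right, the CPM ratio of a variable gene to the constant gene of its cluster, CD103Tg left of B6, with points for libraries (symbols by replicate number) and lines for group means. Shares overlap between groups, and of the 3 ratios that of Tcrg-V4 to Tcrg-C1 alone does not.

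The summed CPM of the 3 constant genes was 83.9, 55.1, 93.4 and 34.3 in CD103Tg, against 12.7, 6.38, 13.1 and 12.7 in B6. That is a mean of 66.7 ± 27.0 CPM in CD103Tg and 11.2 ± 3.24 CPM in B6 (SD, n = 4 each), a ratio of means of 5.94. The summed level varied by 2.72 times between the highest and lowest CD103Tg library, and by 2.05 times among B6 libraries. All 5 gamma members and Tcrg-V1 had the same order in CD103Tg, with replicate 3 highest, then 1, 2 and 4. The same 6 genes were all lowest in replicate 2 of B6. Itgae had another order in CD103Tg, at 5510 CPM in replicate 4 and 3470 CPM in replicate 1.

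Levels of different genes were compared as CPM per kilobase of exon. Among the members in CD103Tg, Tcrg-C2 (36.3 ± 15.6), Tcrg-C1 (25.3 ± 9.66) and Trgv2 (19.4 ± 8.02) came first and were within each other's spread. Cd163l1 (14.4 ± 3.32), Tcrg-C4 (10.3 ± 4.18) and Tcrg-V4 (8.66 ± 3.52) followed, neighbours again within their spread, and Trdc was at 3.36 ± 0.535 CPM per kilobase, the lowest value with the GENCODE transcript length, a place that turns with a shorter length given below. In B6, Cd163l1 was highest (17.0 ± 4.00), followed by Tcrg-C2 (5.68 ± 1.89), Tcrg-C1 (4.44 ± 1.17), Trgv2 (2.81 ± 0.727), Trdc (2.79 ± 0.651), Tcrg-C4 (1.97 ± 0.988) and Tcrg-V4 (1.09 ± 0.282 CPM per kilobase). From Tcrg-C2 downward in B6, neighbours in this order lay within 1 SD of each other's range, while Cd163l1 stood above Tcrg-C2. These SDs are across libraries and do not pair genes within a library. Within every library of either group, Tcrg-C2 stood above Tcrg-C1, Tcrg-C1 above Trgv2, and Tcrg-C4 above Tcrg-V4. The order of Tcrg-C2 and Tcrg-C1 is uncertain, since it depends on how reads of their shared sequence were divided.

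Against the alpha chain, the gamma genes were a small part in both groups. Trac, the alpha constant gene, was at 687 ± 33.9 CPM per kilobase in CD103Tg and 1080 ± 93.1 in B6. The summed gamma constant level per kilobase was 13.7, 8.74, 15.0 and 5.03% of that of Trac in CD103Tg, against 1.19, 0.614, 1.28 and 1.46% in B6. Trdc per kilobase was 0.408 to 0.561% of Trac in CD103Tg and 0.219 to 0.332% in B6. The groups did not overlap in that ratio, in which Trac was lower in CD103Tg.

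The ratio of summed gamma constant to Trdc per kilobase was 33.7, 15.6, 26.7 and 11.6 in CD103Tg, against 4.93, 2.57, 3.85 and 6.67 in B6. The level of Trdc per kilobase depends on the transcript length taken for it. GENCODE gives 3865 exon bases, of which 1105 lie inside the shorter gene of RefSeq (GRCm38.p6). With those, Trdc would be at 11.8 ± 1.87 CPM per kilobase in CD103Tg and 9.75 ± 2.28 in B6, a length chosen after the data were seen. Its mean would then lie above those of Tcrg-C4 and Tcrg-V4 in CD103Tg, and below that of Cd163l1 but above those of all 5 gamma genes in B6. The ratios to Trdc and of Trdc to Trac use the GENCODE length.

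**Figure D4:**
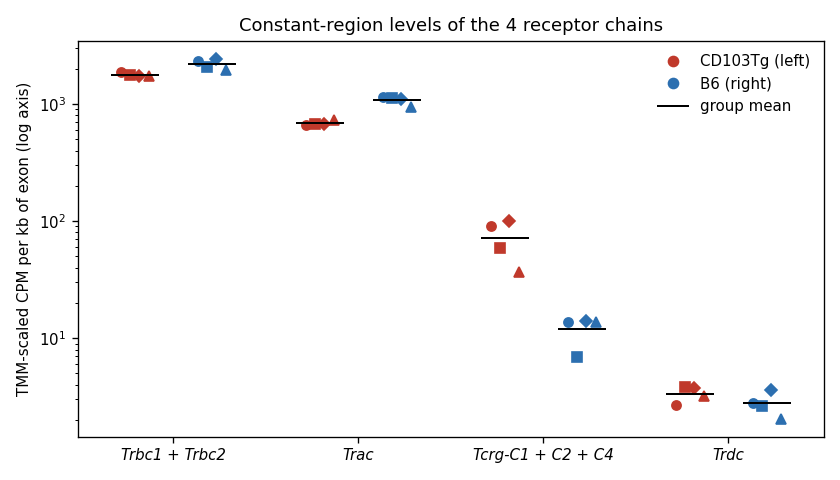
CPM per kilobase of exon (log axis) for the summed beta constant genes, Trac, the summed gamma constant genes and Trdc, with CD103Tg left of B6. Points are libraries, with symbols by replicate number, and lines are group means. Of the 4, the gamma sum alone has every CD103Tg library above every B6 library, at means of 71.9 ± 29.1 in CD103Tg and 12.1 ± 3.49 in B6.

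Of 10 genes of the alpha-beta receptor, the CD3 chains, CD8 and the receptor adaptor Fcer1g, 1 rose, 4 fell and 5 did not pass (10% higher and 40.0% lower, against 17.4% and 13.8% of all tested genes). The median log2 fold change was -0.22, against -0.01 over all tested genes. Trac fell by 0.64 ± 0.07 and the beta constant genes Trbc1 and Trbc2 fell by 0.32 ± 0.07 and 0.29 ± 0.08 on the log2 scale (limma adjusted p = 4.9e-05, 0.00504 and 0.0155). Cd8a fell by 0.24 ± 0.05 (limma adjusted p = 0.00602). Cd247, the zeta chain, rose to 8710 ± 1000 CPM in CD103Tg, against 345 ± 89.2 CPM in B6. Fcer1g, an adaptor that mouse gamma-delta receptors can use, was at 2.30 ± 1.12 CPM in CD103Tg and 2.79 ± 0.166 CPM in B6 (limma adjusted p = 0.401).

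Genes that open the gamma locus in mouse precursors, the interleukin-7 receptor and STAT5 pathway with its targets and Runx factors, were mixed. Of 13, 5 rose, 3 fell and 5 did not pass (38.5% higher and 23.1% lower, against 17.4% and 13.8% of all tested genes), with a median log2 fold change of 0.03. Among the 5, the receptor chain gene Il2rg (log2 fold change 0.21 ± 0.06, limma adjusted p = 0.0319) and the kinase gene Jak3 (0.35 ± 0.10, limma adjusted p = 0.0238) lost their calls under some settings. Il2rg lost its call with quantile normalization (limma adjusted p = 0.289) and without any of 6 single libraries (limma adjusted p of 0.0534 to 0.0913). Jak3 lost its call without any of 4 single libraries and without both numbered 4 (limma adjusted p of 0.0503 to 0.068). The STAT5 target genes Cish and Socs2, which encode feedback inhibitors of cytokine signals, rose by 3.31 ± 0.14 and 2.65 ± 0.25 on the log2 scale (limma adjusted p = 1.34e-07 and 1.6e-05). Socs2 averaged 0.753 CPM in B6 and passed the filter only through CD103Tg, so its p and the counts and shares that include it are descriptions. The survival gene Bcl2 rose by 0.75 ± 0.13 (limma adjusted p = 0.00146) and Runx1 fell by 0.73 ± 0.11 (limma adjusted p = 0.000478). The receptor gene Il7r itself was at 533 ± 75.3 CPM in CD103Tg and 634 ± 58.3 CPM in B6 (limma adjusted p = 0.0743), and passed as lower in 5 of 20 alternatives. Of the STAT5 genes, Stat5b fell by 0.28 ± 0.06 (limma adjusted p = 0.00397) and Stat5a was at -0.15 ± 0.06 (limma adjusted p = 0.0916). Il7r, Il2rg, Jak3, Stat5a and Stat5b were named after their values were seen.

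Of 14 tested genes of gamma-delta lineage choice, 2 rose, 8 fell and 4 did not pass (14.3% higher and 57.1% lower, against 17.4% and 13.8% of all tested genes), with a median log2 fold change of -0.51. The 8 that fell include Egr3, which averaged 0.988 CPM in CD103Tg and passed the filter only through B6. The counts and shares that include Egr3 are therefore descriptions. Id3, which in the mouse thymus acts downstream of receptor signals that favour the gamma-delta fate, was at 30.2 ± 15.4 CPM in CD103Tg and 143 ± 15.3 CPM in B6 (limma adjusted p = 5.58e-05). Egr1, an early response factor upstream of Id3, fell by 1.47 ± 0.13, and Lef1 and Tcf7, factors of early T cells, fell by 1.1 ± 0.07 and 0.70 ± 0.07 (limma adjusted p = 9.56e-06, 1.78e-06 and 2.46e-05). These genes also serve in naive and stem-like alpha-beta T cells.

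Genes of the type 3 programme of gamma-delta T cells were partly listed. Of the 23 genes, 11 were in the table and tested, and 5 rose, 3 fell and 3 did not pass (45.5% higher and 27.3% lower, against 17.4% and 13.8% of all tested genes), with a median log2 fold change of 0.24. These counts and shares are descriptions. They include Tmem176a, Serpinb1a, Igf1r and Sox4, which passed the filter only through the group where they were high. Sox4 averaged 0.781 CPM in CD103Tg and 2.68 CPM in B6. The cytokine genes Il17a and Il17f and the receptor genes Il23r, Il1r1 and Ccr6 had no row in the table. The chemokine receptor gene Ccr2 rose by 2.80 ± 0.15, and the membrane protein genes Tmem176b and Tmem176a rose by 1.86 ± 0.14 and 1.69 ± 0.15 (limma adjusted p = 6.54e-07, 5.08e-06 and 1.22e-05). Tmem176a averaged 0.99 CPM in B6, just under the filter, and passed it only through CD103Tg, so its p is a description. The growth factor receptor gene Igf1r fell by 1.38 ± 0.18 (limma adjusted p = 0.000141). It averaged 0.534 CPM in CD103Tg and passed the filter only through B6, so its p is a description. Serpinb1a, named after its values were seen, was higher (0.72 ± 0.20, limma adjusted p = 0.0197) and lost that call without CD103Tg replicate 2 (limma adjusted p = 0.0583). It averaged 0.875 CPM in B6 and passed the filter only through CD103Tg, so its p is a description as well. Cd163l1 is 1 of the 3 that did not pass.

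Marker sums of other cells differed between the groups for some cell types and overlapped for others. The 8 listed natural killer markers summed to 35.7 to 73.0 CPM in CD103Tg and 14.4 to 18.3 CPM in B6, or 16.3 to 23.7 CPM in CD103Tg and 11.1 to 14.8 CPM in B6 without Gzma, which CD8 T cells also express. Of the 7 tested, 4 rose and 0 fell (57.1% higher and 0.0% lower, against 17.4% and 13.8% of all tested genes). The log2 fold changes were 2.46 for Gzma, 0.97 for Klra8, 0.83 for Tyrobp and 0.79 for Klrb1c (limma adjusted p = 3.9e-05, 0.0052, 0.032 and 0.00226). Klra8 averaged 0.885 CPM in B6 and passed the filter only through CD103Tg, so its p and the counts and shares that include it are descriptions. Fcer1g, Klri2 and Fcgr3 did not pass, and Ncr1, under the filter, was at 0.401 ± 0.193 CPM in CD103Tg and 0.506 ± 0.171 CPM in B6. The 8 listed B cell markers summed to 384 to 549 CPM in CD103Tg and 795 to 887 CPM in B6, led by Ighm. Without Ighm and Igkc they summed to 34.4 to 43.9 CPM in CD103Tg and 31.4 to 35.6 CPM in B6, and the groups overlapped. Taken singly, 3 of the 5 tested B cell markers rose (Igkc, Cd79a and Ebf1), 1 fell (Ighm) and 1 did not pass. Cd79a and Ebf1 averaged 0.585 and 0.0657 CPM in B6 and passed the filter only through CD103Tg, so counts that include them are descriptions. Myeloid and dendritic markers, all 10 listed, summed to 93.9 to 184 CPM in CD103Tg and 65.6 to 130 CPM in B6, and the groups overlapped. Gene by gene, 4 of the 8 tested rose, 0 fell and 4 did not pass, with a median log2 fold change of 0.78. Those that rose were Cd68 (0.99), Cst3 (0.29), Siglech (1.21) and Xcr1 (0.57; limma adjusted p = 0.00419, 0.0205, 0.00414 and 0.0198). Siglech averaged 0.217 CPM in B6 and passed the filter only through CD103Tg, so its p and the counts and median that include it are descriptions. Natural killer T cell markers, 2 of 4 listed, summed to 5.18 to 8.97 CPM in CD103Tg and 3.70 to 4.60 CPM in B6. That sum is mostly Klrb1c, already counted among the natural killer markers, at 6.97 ± 1.57 CPM in CD103Tg and 3.55 ± 0.49 CPM in B6. The other marker, Cd40lg, went the other way, at 0.0487 ± 0.0186 CPM in CD103Tg and 0.56 ± 0.153 CPM in B6. Cd4 and Foxp3 had no row, and the 2 other CD4 T cell markers summed to 0.191 to 0.447 CPM in CD103Tg and 0.858 to 1.95 CPM in B6. Of the 6 markers of type 3 innate or gamma-delta cells, 0 had a row. The part of these cells in the gamma levels was not tested. Trdc, the defining constant gene of gamma-delta T cells, is the member whose values are given above.

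The genes most like each gamma member over the 8 libraries were found by the root mean square difference of log2(CPM + 1) values centred on each gene's mean, among 8919 genes whose mean reached 5 CPM. Klrc2, a killer lectin receptor gene, was nearest to Tcrg-C1 (0.248 log2 units), and Aqp9, a water and glycerol channel gene, to Tcrg-C2 (0.351). Casp1, the gene of caspase-1, was nearest to Trgv2 (0.257) and Tcrg-V4 (0.15), and Selenon to Tcrg-C4 (0.308). Klrc2 was at 29.2 ± 6.09 CPM in CD103Tg and 5.88 ± 2.43 CPM in B6, and Casp1 at 14.1 ± 3.98 CPM in CD103Tg and 3.53 ± 0.606 CPM in B6. Among the gamma members themselves the difference was 0.2 to 0.483 over 10 pairs, and between a gamma member and Trdc or Cd163l1 it was 0.785 to 1.49. Between Trdc and Cd163l1 it was 0.506. Because values were centred over all 8 libraries, these differences contain the group differences given above and add no support to them. Nearest to Trdc were Mcu (0.147), Rnf126 (0.153) and Prcc (0.154), and nearest to Cd163l1 was Inpp5a (0.164).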

How the data were processed

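RNA-seq of 8 libraries, 4 CD103Tg and 4 B6, was used, grouped by sample title. Per the labels' protocols, column-purified RNA was turned into SMART-Seq v4 and Nextera XT libraries, which do not mark strand and carry no molecular identifiers. The submitters' processing notes list STAR 2.7.0f, RSEM, cutadapt 1.18 and bcl2fastq 2.17, and the builds GRCm38 and mm10. The authors deposited a gene-level signal, TMM-scaled CPM of genes filtered by a rule not given in the sources used here. All 13245 gene IDs matched GENCODE M21, used for coordinates, exon lengths and sequences.

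Values were whole multiples of 0.01 read within 0.05 of a hundredth, and 63.0% to 65.2% were whole reads within 0.005, as estimated counts would give, so recovered reads served for depth and for voom. Genes averaging 1 CPM or more were tested on log2(CPM + 1), which understates changes of low genes, with limma 3.58.1 in R 4.3.3 (trend, genotype only, two-sided, Benjamini-Hochberg) and single genes with exact permutation of means. The fit was tested on simulated data. Python 3.11.15 with numpy 2.4.6, scipy 1.17.1, pandas 2.3.3 and matplotlib 3.10.9 did the rest.

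Named were the members, other gamma and delta segments, the 4 called genes of smallest p per list, the receptor constant genes, Fcer1g, markers and the nearest 3 genes by pattern, of which some are printed. Members and lists were chosen with earlier results of these data known. Alternatives were voom, leaving out libraries, the replicate number as a block, array weights, robust eBayes, equal totals, quantile normalization, median-of-ratios scaling, pseudocounts of 0.1 and 5, and a filter at 5 CPM or none. The median log2 fold change over all tested genes was -0.0052. Counting error alone would be small at these depths, except for genes with few reads, such as Tcrg-V1 and Tcrg-V4 in B6 and Trdv5 in both groups. Trdv5 had 7 to 22 estimated reads per library in B6 and 16 to 50 in CD103Tg.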

Additional observations from a re-analysis of the deposited data

Results flagged for a closer look

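The summed gamma constant level of B6 replicate 2 stood apart from its group. It was 6.38 CPM, while the other 3 B6 libraries were at 12.7 to 13.1 CPM, so the gap to the nearest was 0.944 of the range of the group, more than Dixon's 95% limit for 4 values. Of the 26 groups of values checked, 1 was marked in this way, and chance marks about 1 in 20.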

How the results depend on the processing

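Tcrg-C1, Tcrg-C2, Tcrg-C4 and Trgv2 were called higher in all 20 alternatives. Tcrg-V4 was called in the 19 that tested it, since a minimum mean of 5 CPM removed it. Wherever the filter was kept, Tcrg-V4 was tested only through its level in CD103Tg, so those calls are descriptions. Trdc and Cd163l1 were called in 0 of 20, with the lowest limma adjusted p at 0.0714 and 0.0667. Leaving out 1 library at a time gave 5 called members each time, counting Tcrg-V4. The log2 fold changes were then 2.02 to 2.41 for Tcrg-C1 and 1.48 to 1.82 for Tcrg-V4. Calls over all tested genes ranged from 2771 to 3583 without 1 library, against 3592 with all, and called list genes from 28 to 35. Quantile normalization gave 1744 higher and 1989 lower, and equal totals 1756 and 1848, against 2000 and 1592 as reported; the cause was not tested. The ratio of summed gamma constant levels, CD103Tg over B6, was 5.94, moved to 9.33 when taken relative to Trac, which was itself lower in CD103Tg, and ranged from 5.14 to 6.90 without 1 library. Among 57 other tested list genes and segments, 12 changed their call under some setting. The replicate number as a block gave 3682 calls, with 5 members among them, counting Tcrg-V4. Same-numbered libraries correlated at 0.221, 0.35, -0.0807 and 0.123 in their deviations, so the numbers were not taken as pairs. Among the alternatives, the RefSeq length of Trdc was chosen after seeing the data. Tcrg-V1 is limited by its 27 estimated reads over the B6 libraries and by shared sequence.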
